A study of Mus musculus with 24 samples.

Results

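The livers of 3xTg-AD (3xTg) mice were compared with those of wild-type (WT) mice when both were fed the control diet, gene by gene across the expressed genes. The comparison used 8 of the 24 livers in the series, 4 of each genotype, chosen by their labels for genotype and diet. All mice were female, began the diet at 3 months of age and stayed on it for 6 months. The control diet held 70% carbohydrate, 20% long-chain triglycerides and 10% protein. The other 16 livers came from mice of the same genotypes on a ketogenic diet or on a diet with medium-chain triglycerides (MCT), and they are used here as livers in which the genotype difference could be measured again. WT mice were of the hybrid strain B6129SF2/J, which is sold as a control for 3xTg-AD mice, and the labels do not say that any of the animals were littermates.

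The 3xTg-AD line is a model of Alzheimer's disease that carries mutant human APP and tau transgenes under the neuronal Thy1 promoter. Thy1-driven transgenes act mainly in neurons, so the liver of these mice is a tissue in which the transgenes are not meant to be active. The strains have been bred apart and can also differ at loci that have nothing to do with the transgenes, and this design cannot tell apart a transgene, its site of insertion and the rest of the strain's genome. The liver itself makes most plasma proteins, turns dietary carbohydrate into fatty acids, oxidises fatty acids and makes ketone bodies from them, and clears steroids and foreign compounds with cytochrome P450 enzymes and sulfotransferases. Several of these enzymes belong to clusters of recently duplicated genes that vary among mouse strains.

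The 8 libraries held 12073638 to 14348626 counts on genes, and levels of single genes are CPM, counts of a gene scaled to a common library total with TMM factors. Sums over marker lists are CPM by library total alone, and were also computed with TMM factors, an alternative chosen after seeing the data. WT control livers 3 and 4 stood apart from the other 6 in the non-coding RNAs Neat1 and Xist: Neat1 was at 19.5 and 37.3 CPM there against 4.39 to 7.65 CPM elsewhere, and Xist at 364 and 737 CPM against 154 to 228 CPM. Malat1, another non-coding RNA that is kept in the nucleus, did not set them apart, at 376, 211, 195 and 311 CPM in the WT livers and 258, 173, 288 and 137 CPM in the 3xTg livers. WT livers 3 and 4 had 8.23% and 7.84% of their gene counts on mitochondrially encoded genes, against 12.8% and 13% in WT livers 1 and 2 and a range of 6.54% to 14.1% in the 3xTg livers. Exocrine pancreas markers summed to at most 32.2 CPM in each of the 8 livers. Of 14 listed hepatocyte markers 13 were measured, and they summed to 153650 to 179301 CPM in WT and 154524 to 211813 CPM in 3xTg livers. Counts of mouse App and Mapt do not report on the human transgenes, so no expression check of the genotype labels was made with them.

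Of 13281 genes tested, 214 differed between 3xTg and WT liver on the control diet at an adjusted p under 0.05 (1.61% of genes tested), 94 of them higher in 3xTg (0.708%) and 120 lower (0.904%). Here and below, adjusted p is from edgeR's quasi-likelihood test after Benjamini-Hochberg adjustment over all 13281 genes, a gene past it is said to be called, and n = 4 livers per group. In 192 of the 214 genes the 4 livers of one genotype lay entirely above the 4 of the other, which was so for 8.67% of all tested genes. Large differences were common among them: 59 genes differed by at least 3 on the log2 scale, 18 higher and 41 lower, and the smallest called difference was 0.46. The median log2 fold change was 1.51 among genes called higher and -1.84 among genes called lower, against -0.001 over all genes tested. Without WT livers 3 and 4, which leaves 2 WT livers, 97 genes were called, and 82 of the 214 were among the calls. Leaving out WT liver 3 alone gave 124 genes, leaving out 3xTg liver 2 gave 138 and leaving out 3xTg liver 3 gave 139, and none of the 214 changed sign in any of these fits.

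**Figure D1:**
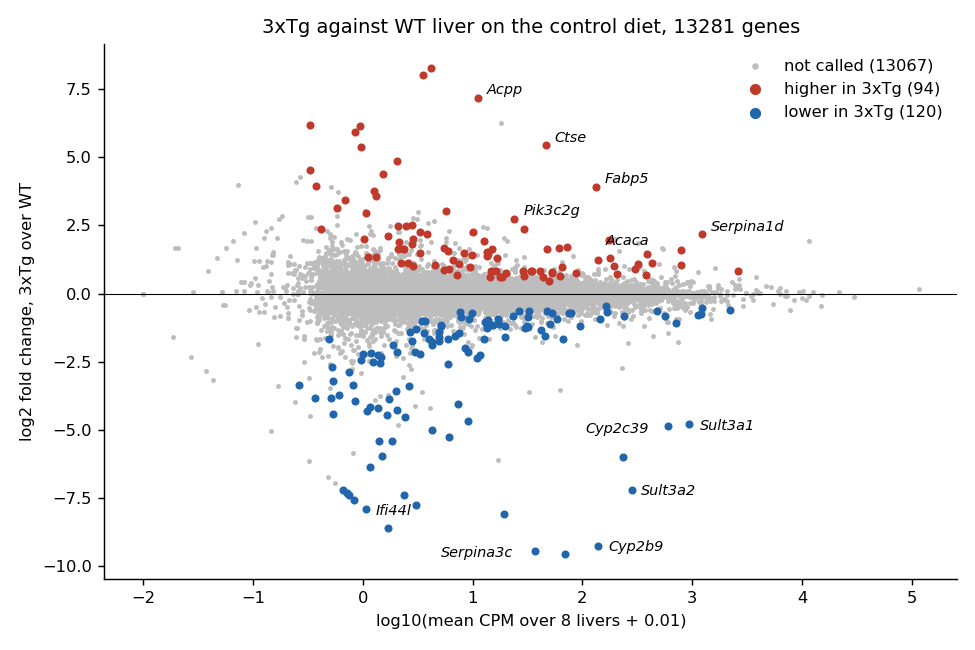
Each point is 1 of 13281 genes, placed by its mean level over the 8 livers (log10 of CPM + 0.01, horizontal) and its log2 fold change, 3xTg over WT (vertical). The 94 red genes were called higher and the 120 blue genes lower in 3xTg, and Serpina3c, Cyp2b9, Sult3a1 and Cyp2c39 stand far below the bulk of genes at similar levels.

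Among the genes with the smallest adjusted p were enzymes, a protease inhibitor and a protease that stood at far higher levels in one genotype than in the other. Serpina3c (ENSMUSG00000066361.3, chromosome 12, 104146382 to 104153870 on GRCm38), a member of the serine protease inhibitor family, was at 60.4, 129, 45.4 and 59.5 CPM in the WT livers and 0.0853, 0.152, 0.0781 and 0.0694 in the 3xTg livers. The lowest WT liver lay far above the highest 3xTg liver, and the log2 fold change was -9.45 ± 0.54, adjusted p = 1.24e-10. Cyp2c39 (ENSMUSG00000025003.6, chromosome 19, 39510862 to 39568529), a cytochrome P450 that acts on retinoids, was at 1240, 1356, 1175 and 929 CPM in the WT livers and 17.2, 51.4, 55.1 and 38.7 in the 3xTg livers. The groups were far apart here too (-4.85 ± 0.33, adjusted p = 1.73e-09). In the opposite direction, Ctse (ENSMUSG00000004552.16, chromosome 1, 131638306 to 131675505), which encodes the aspartic protease cathepsin E, was at 4.29, 1.52, 1.45 and 1.12 CPM in the WT livers and 80.3, 102, 95.2 and 83.8 in the 3xTg livers. All 3xTg livers stood well above all WT livers, the highest WT value being liver 1 (5.44 ± 0.48, adjusted p = 2.31e-07). Acpp (ENSMUSG00000032561.15, chromosome 9, 104288251 to 104337748), a secreted acid phosphatase, was at 0.156, 0, 0.0688 and 0.312 CPM in the WT livers and 6.23, 29.0, 12.9 and 40.4 in the 3xTg livers. It was close to 0 in WT and varied several-fold among the 3xTg livers (7.19 ± 0.64, adjusted p = 2.35e-07). Pik3c2g, a class II phosphoinositide 3-kinase of the liver, was at 4.91, 4.30, 6.61 and 9.10 CPM in the WT livers and 36.8, 46.8, 42.8 and 40.6 in the 3xTg livers, again without overlap (2.73 ± 0.26, adjusted p = 4.66e-07).

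Sulfotransferases and P450 enzymes that are abundant in the livers of female mice were among the lowest genes of the 3xTg group. Sult3a1 (ENSMUSG00000069668.4, chromosome 10, 33857721 to 33879532), a cytosolic sulfotransferase, was at 1590, 1620, 2003 and 2072 CPM in the WT livers and 9.81, 52.9, 191 and 9.44 in the 3xTg livers. The WT livers lay close together, and among the 3xTg livers number 3 was the highest and still several-fold below the WT group (-4.79 ± 0.80, adjusted p = 0.00114). Its neighbour Sult3a2 (ENSMUSG00000090298.2, chromosome 10, 33766424 to 33786704) was at 488, 747, 475 and 540 CPM in the WT livers and 1.02, 3.04, 11.0 and 0.347 in the 3xTg livers, with the same 3xTg liver highest (-7.19 ± 0.85, adjusted p = 1.42e-05). The phenobarbital-inducible family members Cyp2b9 and Cyp2b13 behaved differently within the WT group. Cyp2b9 was at 293, 0, 303 and 508 CPM in the WT livers and 0.426, 0.836, 0.547 and 0 in the 3xTg livers. WT liver 2 had no counts and lay with the 3xTg livers, so that the groups overlapped although the gene was called (-9.25 ± 1.71, adjusted p = 0.00311). Cyp2b13 was at 155, 0, 123 and 275 CPM in the WT livers and 0.171, 0.380, 0.156 and 0 in the 3xTg livers, with the same WT liver at 0 (-9.57 ± 1.73, adjusted p = 0.00263). Cyp2b10, of the same block, was called lower as well (adjusted p = 0.0149), with 171 counts over the WT and 3 over the 3xTg libraries, a ratio of levels of 53.7 (95% counting interval 18.1 to 263). Its WT level rested largely on liver 4 at 8.60 CPM. The call was lost without that liver and without 3xTg liver 1, 2 or 4, and its adjusted p reached 0.433 over the alternatives. Of 26 genes listed as predominant in the liver of females, 4 were called lower (Sult3a1, Sult3a2, Cyp2b9 and Cyp2b13), 0 higher and 22 were not called, and 7 of the 26 lay above 0. Of 20 tested genes listed as predominant in males, 0 were called by edgeR, with 2 below an unadjusted p of 0.05 and Slco1a1 higher by DESeq2, and 13 lay above 0. Over all 13281 genes tested 0.904% were called lower, 1528 had an unadjusted p under 0.05 in edgeR and 49.8% lay above 0. Sult3a1 and Sult3a2 are neighbours, as are Cyp2b9 and Cyp2b13, so the 4 genes called lower are not 4 separate loci.

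**Figure D2:**
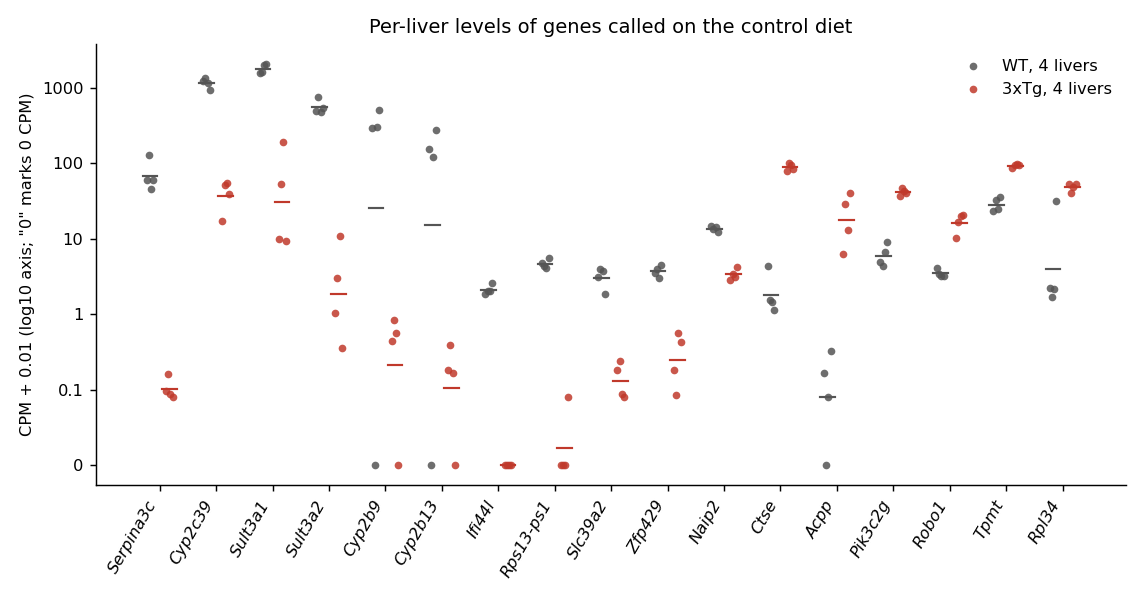
Levels of 17 called genes in each of the 8 livers, as CPM + 0.01 on a log10 axis, with WT livers in grey, 3xTg livers in red and a bar at the mean of the log10 values of each group. The genotypes overlap for Cyp2b9 and Cyp2b13, where WT liver 2 is at 0, and for none of the others shown, although WT liver 4 lies near the 3xTg livers for Rpl34.

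Further genes separated the genotypes in every liver. Ifi44l, an interferon-induced gene, was at 1.87, 2.02, 2.00 and 2.62 CPM in the WT livers and 0, 0, 0 and 0 in the 3xTg livers. With 0 counts in 4 libraries, the 3xTg level was at least 37.4-fold lower than the WT level, taking 3 counts over the group as the floor (adjusted p = 0.000219). Of 40 tested interferon-stimulated genes, a list that does not hold Ifi44l, 0 were called by edgeR or by DESeq2, and 3 had an unadjusted p under 0.05. By edgeR 1.61% of all genes tested were called. Naip2, a sensor of bacterial proteins in the inflammasome, was at 14.8, 13.3, 14.2 and 12.2 CPM in the WT livers and 2.81, 3.42, 3.12 and 4.23 in the 3xTg livers (-2.0 ± 0.22, adjusted p = 5.16e-06). Bid, which links death receptors to mitochondrial apoptosis, was lower in 3xTg, at 3.49 ± 0.733 against 10.2 ± 0.675 CPM (-1.54 ± 0.16, adjusted p = 2.87e-06). Slc39a2, a zinc importer, was at 3.12, 3.96, 3.72 and 1.87 CPM in the WT livers and 0.171, 0.228, 0.0781 and 0.0694 in the 3xTg livers, without overlap (-4.46 ± 0.57, adjusted p = 3.87e-05). The efflux pump gene Abcb1b was also lower (1.09 ± 0.325 against 4.86 ± 1.18 CPM, log2 fold change -2.16 ± 0.38, adjusted p = 0.00174).

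Other genes were called higher in 3xTg. Robo1, a receptor for Slit guidance proteins, averaged 16.8 ± 4.63 against 3.48 ± 0.404 CPM (2.27 ± 0.34, adjusted p = 0.000291), and Tpmt, which methylates thiopurine drugs, 93.1 ± 5.16 against 28.9 ± 5.96 CPM (1.69 ± 0.29, adjusted p = 0.00156). Pdzk1ip1, a small membrane protein, was at 0.858, 0.843, 1.10 and 2.06 CPM in the WT livers and 6.57, 13.3, 10.3 and 10.5 in the 3xTg livers (3.04 ± 0.39, adjusted p = 3.95e-05). Pltp, the phospholipid transfer protein of plasma lipoproteins, was at 22, 31.3, 31.8 and 51.2 CPM in the WT livers and 67.5, 110, 121 and 146 in the 3xTg livers, with no overlap (1.71 ± 0.29, adjusted p = 0.00159). For the ribosomal protein gene Rpl34 the WT group was itself divided, at 2.18, 1.69, 2.13 and 31.3 CPM in the WT livers and 54.0, 40.4, 47.9 and 53.0 in the 3xTg livers. WT liver 4 lay far above the other WT livers, close to the 3xTg group (2.36 ± 0.60, adjusted p = 0.0416), and the call was lost in 7 of the 8 fits that left out 1 liver; without WT liver 4 it was kept. Ren1, the renin gene, was noticed only after its values were seen: it was called higher (adjusted p = 0.000435), with 1 count over the WT and 87 over the 3xTg libraries, a ratio of levels of 92.3 (95% counting interval 16.1 to 3686).

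A pair of gene clusters held called genes in both directions. On chromosome 12, 8 of 11 tested genes between 103728156 and 104153870 were called, 5 higher and 3 lower. This stretch, like the others below, was drawn from its first to its last called gene, which raises the share called within it. The 4 called Serpina1 genes, which encode alpha-1 antitrypsin, the main plasma inhibitor of neutrophil elastase, were all higher in 3xTg. Serpina1d was at 495, 567, 414 and 298 CPM in the WT livers and 1689, 2141, 2302 and 1910 in the 3xTg livers (2.18 ± 0.28, adjusted p = 4.28e-05). Serpina1c was at 427, 529, 329 and 292 CPM in the WT livers and 1570, 1177, 1176 and 887 in the 3xTg livers (1.61 ± 0.27, adjusted p = 0.00126). Serpina1a (1074 ± 263 against 520 ± 118 CPM, log2 fold change 1.05 ± 0.22, adjusted p = 0.0108) and Serpina1b (3351 ± 355 against 1910 ± 564 CPM, log2 fold change 0.81 ± 0.19, adjusted p = 0.0211) differed by less, and within WT the levels of all 4 were lowest in livers 3 and 4. None of the 4 genes overlapped between the groups, but Serpina1a lost its call without WT liver 3 or 4 or 3xTg liver 1, and Serpina1b without WT liver 3 or 4 or 3xTg liver 2 or 3, with adjusted p up to 0.295 and 0.417 over the alternatives. Serpina1e, the fifth gene of the group, was not called (-1.21 ± 0.83, adjusted p = 0.649). In the same stretch Serpina11 was lower (23.5 ± 3.54 against 59.9 ± 16.9 CPM, log2 fold change -1.35 ± 0.26, adjusted p = 0.00429), and the pseudogene Gm8893, named after its values were seen, was at 7.13 ± 1.84 against 458 ± 183 CPM (-6.00 ± 0.36, adjusted p = 2.68e-10). The 4 called Serpina1 genes share 51.8% to 85.8% of their 31-base words with transcripts of other genes, so that the value of any single copy is uncertain. Without both WT livers 3 and 4 Serpina1d kept its call and Serpina1c had an adjusted p of 0.0882.

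The promoters of 3 Serpina1 genes that were higher together and of 2 Cyp2c genes that differed in opposite directions are shown for comparison, as the 250 bases before the RefSeq start on GRCm38.p6, all 5′ to 3′ on the gene's strand. They lie at chr12:103863620-103863869, chr12:103904951-103905200, chr12:103773634-103773883 and chr19:39649043-39649292 on the minus strand and at chr19:39510572-39510821 on the plus strand. Capitals mark matches, on either strand, to a TATA box (TATAAA), a short site of the liver factor HNF1 (GTTAAT), a site of the liver factor HNF4A (CAAAGTCCA) or a STAT5 site (TTCNNNGAA).
Serpina1a: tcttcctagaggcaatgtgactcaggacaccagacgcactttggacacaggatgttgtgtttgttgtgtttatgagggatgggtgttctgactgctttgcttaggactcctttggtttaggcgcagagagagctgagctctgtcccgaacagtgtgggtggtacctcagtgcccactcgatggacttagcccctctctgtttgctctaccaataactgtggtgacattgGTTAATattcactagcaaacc
Serpina1c: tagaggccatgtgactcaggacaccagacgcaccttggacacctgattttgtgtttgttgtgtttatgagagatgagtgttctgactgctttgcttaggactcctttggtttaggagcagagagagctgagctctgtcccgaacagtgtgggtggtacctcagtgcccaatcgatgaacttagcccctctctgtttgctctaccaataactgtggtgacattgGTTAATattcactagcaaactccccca
Serpina1d: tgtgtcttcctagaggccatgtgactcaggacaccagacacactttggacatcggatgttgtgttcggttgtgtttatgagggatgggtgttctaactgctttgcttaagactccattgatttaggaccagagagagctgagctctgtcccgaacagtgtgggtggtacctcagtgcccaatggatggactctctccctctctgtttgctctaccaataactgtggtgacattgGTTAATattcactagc
Cyp2c39: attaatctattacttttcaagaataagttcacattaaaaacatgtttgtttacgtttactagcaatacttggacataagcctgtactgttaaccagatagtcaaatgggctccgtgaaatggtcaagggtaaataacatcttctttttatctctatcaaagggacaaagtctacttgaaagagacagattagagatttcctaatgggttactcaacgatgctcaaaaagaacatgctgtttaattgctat
Cyp2c67: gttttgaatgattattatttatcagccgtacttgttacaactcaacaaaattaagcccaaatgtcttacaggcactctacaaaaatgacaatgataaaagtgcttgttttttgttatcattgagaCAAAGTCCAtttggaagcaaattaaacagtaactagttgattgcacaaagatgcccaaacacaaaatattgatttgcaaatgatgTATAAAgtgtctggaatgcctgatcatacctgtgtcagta
The GTTAAT site occurs once in each of these Serpina1 promoters, beginning 21, 27 and 16 bases before the start. It occurs in 6.44% of the 32814 RefSeq mouse promoters of that length, TATAAA in 12.4%, TTCNNNGAA in 7.02% and CAAAGTCCA in 0.384%. The Serpina1c and Serpina1d promoters were identical at 88% of 250 bases. A single GTTAAT also stands in the promoter of Serpina1e, which was not called, beginning 78 bases before its RefSeq start, which lies 2078 bases from the start in the files. The RefSeq starts of Serpina1a, Serpina1c and Serpina1d lie at -57, -63 and -41 bases from those in the files, that is, upstream. The same bases flank the site in all of these genes, so its distance depends on where the start was annotated. Of the Cyp2c genes called higher, CAAAGTCCA was found in Cyp2c67 and Cyp2c68 but not in Cyp2c55, which has TATAAA 29 bases before its start. Cyp2c68 also holds GTTAAT on the opposite strand. None of the motifs was found in Cyp2c39 or Cyp2c37, which were lower. These are sequences of the reference genome, not of the mice compared, and whether the motifs have a part in the differences was not tested. Cyp2c39 and Cyp2c67 were identical at 55.6% of bases and Cyp2c67 and Cyp2c68 at 75.2%.

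On chromosome 19, 5 of 9 tested genes between 39007019 and 40012243 were called, all of them members of the Cyp2c family, which metabolises fatty acids, steroids and drugs. Cyp2c39 and Cyp2c37 were lower in 3xTg and Cyp2c55, Cyp2c67 and Cyp2c68 higher. Cyp2c67 was at 64.8, 95.1, 52.9 and 70.6 CPM in the WT livers and 313, 282, 305 and 199 in the 3xTg livers, without overlap (1.96 ± 0.32, adjusted p = 0.000950). Cyp2c68 was at 435 ± 48.4 against 203 ± 19.6 CPM (1.10 ± 0.20, adjusted p = 0.00326) and Cyp2c37 at 458 ± 102 against 955 ± 117 CPM (-1.06 ± 0.26, adjusted p = 0.0362). The call of Cyp2c37 was lost in 7 of the 8 fits without 1 liver, and that of Cyp2c55 (2.13 ± 0.49, adjusted p = 0.0232) without WT liver 1, 2 or 3 or 3xTg liver 4. Without both WT livers 3 and 4 the adjusted p was 0.0566 for Cyp2c67 and 0.0602 for Cyp2c68, while Cyp2c39 kept its call. Cyp2c67 and Cyp2c68 share 67.6% and 62.0% of their 31-base words with other genes and Cyp2c39 26.9%. Over 41 tested P450 genes and regulators of foreign-compound metabolism, 3 were called higher, 5 lower and 33 not, with 15 at an unadjusted p under 0.05, 14 above 0 and a median of -0.21. DESeq2 called 4 of these 41 higher and 7 lower. Of all genes tested, edgeR called 0.708% higher and 0.904% lower, and 49.8% lay above 0.

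**Figure D3:**
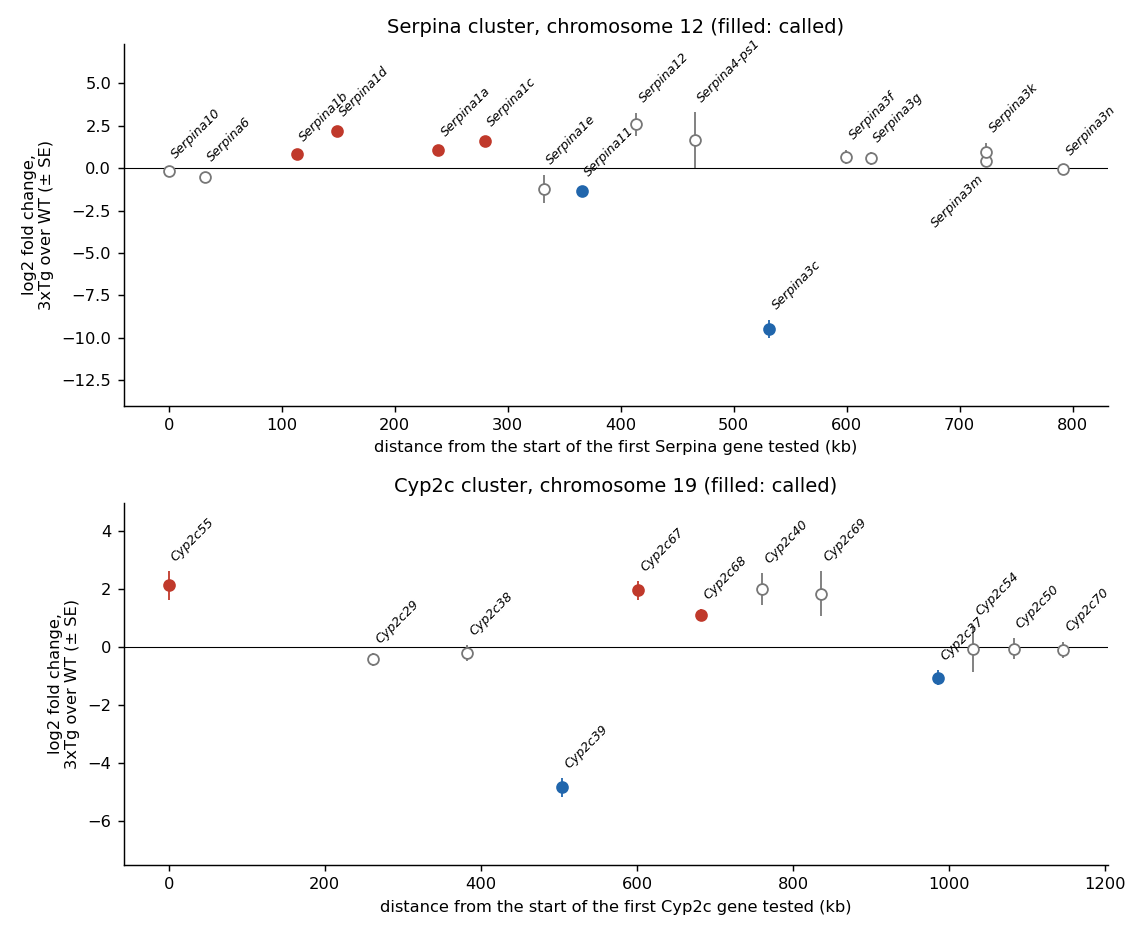
Log2 fold change (3xTg over WT, ± SE) of each tested gene with a Serpina symbol in the cluster on chromosome 12 (upper) and a Cyp2c symbol in the cluster on chromosome 19 (lower), against distance in kb from the start of the first of them. Filled red and blue points were called higher and lower: within 0.426 Mb Serpina1b, Serpina1d, Serpina1a and Serpina1c were higher and Serpina11 and Serpina3c lower, and Cyp2c39 at -4.85 lies between uncalled or higher neighbours.

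Called genes lay near one another elsewhere too. In all, 9 runs of at least 3 called genes, each within 1 Mb of the next, were found. Each run begins and ends at a called gene, and how many runs chance would give was not tested. On chromosome 13, 5 of 20 tested genes between 67173182 and 67792512 were called, namely the zinc finger genes Rsl1, Zfp429, Zfp874a and Zfp493, all lower, and Zfp457, higher. Rsl1 encodes a repressor that dampens sex-specific liver genes, and it was at 4.21, 4.30, 5.57 and 5.55 CPM in the WT livers and 2.30, 2.13, 2.73 and 2.50 in the 3xTg livers (-1.02 ± 0.21, adjusted p = 0.00866). Its groups did not overlap, and without both WT livers 3 and 4 the adjusted p was 0.210. Zfp429 was at 3.51, 3.96, 3.03 and 4.43 CPM in the WT livers and 0.171, 0.0760, 0.547 and 0.416 in the 3xTg livers (-3.57 ± 0.41, adjusted p = 7.84e-06). Zfp457 had 2 counts over the 4 WT libraries and 1.64 to 2.05 CPM in the 3xTg livers, a ratio of levels of 51.4 (95% counting interval 13.9 to 431) (adjusted p = 0.00991). On chromosome 7, all 3 tested genes of the Cyp2b block were lower. On chromosome 14, Klhl33, Rnase4 and Slc39a2 were lower and Sall2 higher within 1.44 Mb. Rnase4, a secreted ribonuclease, was at 1515, 1285, 1765 and 1526 CPM in the WT livers and 948, 1025, 783 and 840 in the 3xTg livers (-0.76 ± 0.15, adjusted p = 0.00429). On chromosome 9, Rpl29, Abhd14a and Mapkapk3 were higher and Col6a5 and Hemk1 lower among 24 tested genes. The calls of Zfp874a, Sall2, Abhd14a and Hemk1 were each lost in 5 to 7 of the 8 fits without 1 liver. By chromosome, 13 had 20 of 497 tested genes called (4.02%), 18 of them lower, and 9 had 17 of 732 (2.32%), 13 of them higher. Over all genes tested the share was 1.61%. Chromosome 9 was not exceptional in share, as 12 (2.73%), 19 (2.70%), 14 (2.46%) and 16 (2.34%) had larger ones. Chromosome 7 also had 20 called genes, of 1016 tested.

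Genes with any pseudogene label are counted here as pseudogenes, Cd1d2 and Abhd1 among them, which are labelled protein coding as well. Such genes made up 27 of the 214 called genes. Of 283 pseudogenes tested these were 9.54%, 24 of them lower in 3xTg, against 170 of 12389 protein-coding genes (1.37%) and 13 of 510 long noncoding RNAs (2.55%). Among the 59 genes with a log2 difference of at least 3, 28 were protein coding, 24 pseudogenes and 7 long noncoding RNAs. Rps13-ps1, a processed copy of a ribosomal protein gene, was at 4.84, 4.39, 4.06 and 5.49 CPM in the WT livers and 0, 0, 0 and 0.0694 in the 3xTg livers. The 3xTg group held 1 count against 261 in WT, a ratio of levels of 246 (95% counting interval 43.8 to 9757) (adjusted p = 1.37e-06). Rpl3-ps1 was at 18.1, 14.6, 24.9 and 12.03 CPM in the WT livers and 0.426, 0.684, 0.625 and 0.902 in the 3xTg livers (-4.69 ± 0.59, adjusted p = 3.76e-05), and Mrpl48-ps at 5.85, 2.36, 4.13 and 1.99 CPM in the WT livers and 0, 0.0760, 0.156 and 0.0694 in the 3xTg livers (-5.39 ± 0.83, adjusted p = 0.000414). In each of these the 3xTg livers were near 0 and the WT livers above 1 CPM. The called pseudogenes shared a median of 71.9% of their 31-base words with other genes, and the 255 uncalled pseudogenes with a transcript 57.8%. For called genes with any protein-coding label, Cd1d2 and Abhd1 again among them, the median was 4.69%. Reads of a processed copy and of its parent gene are told apart only where the sequences differ, and whether strain differences in sequence moved reads between them was not tested.

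Several genes that turn carbohydrate into fatty acids were higher in 3xTg liver on the control diet. Of 21 tested genes of de novo lipogenesis and desaturation 4 were called higher, 0 lower and 17 were not called. By edgeR 12 of the 21 had an unadjusted p under 0.05, 18 lay above 0 and the median was 0.47. Over all 13281 genes tested 1528 had an unadjusted p under 0.05, 49.8% lay above 0 and the median was -0.001. Acaca, acetyl-CoA carboxylase 1, which makes the malonyl-CoA for synthesis, was at 81.5, 87.9, 84.5 and 77.2 CPM in the WT livers and 155, 201, 184 and 242 in the 3xTg livers. Every 3xTg liver was above every WT liver (1.24 ± 0.25, adjusted p = 0.00866). Acacb, the mitochondrial isoform whose malonyl-CoA restrains fatty acid import, was at 70.5, 136, 78.8 and 126 CPM in the WT livers and 168, 299, 267 and 273 in the 3xTg livers (1.29 ± 0.29, adjusted p = 0.0207). Me1, malic enzyme, a source of NADPH, was at 163, 228, 219 and 217 CPM in the WT livers and 331, 748, 560 and 629 in the 3xTg livers (1.45 ± 0.33, adjusted p = 0.0205), and Pklr, the liver pyruvate kinase, at 258, 282, 254 and 287 CPM in the WT livers and 490, 591, 597 and 656 in the 3xTg livers (1.11 ± 0.27, adjusted p = 0.0370). Within 3xTg, liver 1 was the lowest for all 4 of these genes. Not called by edgeR were Scd1, the stearoyl-CoA desaturase, at 18215 ± 5998 against 4841 ± 1994 CPM (1.91 ± 0.52, adjusted p = 0.0608), Acss2 (1.68 ± 0.48, adjusted p = 0.0825), Elovl6 (1.65 ± 0.55, adjusted p = 0.152), Acly (0.98 ± 0.35, adjusted p = 0.192) and Fasn, fatty acid synthase (0.80 ± 0.38, adjusted p = 0.419), while DESeq2 called Scd1 and Acss2 as well, 6 of the 21. The transcription factors of the pathway lay slightly below 0 and were not called, Srebf1 at -0.24 ± 0.35 and Mlxipl at -0.19 ± 0.30.

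Outside that list, G6pdx, the entry enzyme of the pentose phosphate pathway and another source of NADPH, was at 6.40, 10.2, 6.26 and 5.98 CPM in the WT livers and 8.61, 22.4, 29.0 and 30.1 in the 3xTg livers. 3xTg liver 1 overlapped the WT range (1.65 ± 0.36, adjusted p = 0.0146). Fabp5, a fatty acid binding protein scarce in normal liver, was at 11.5, 14.3, 9.43 and 29.8 CPM in the WT livers and 58.8, 261, 446 and 227 in the 3xTg livers, with 3xTg liver 1 again lowest and no overlap (3.93 ± 0.72, adjusted p = 0.00286). Acaca kept its call in each fit that left out 1 liver, as did Fabp5, which kept it without both WT livers 3 and 4 as well. Me1 lost its call without WT liver 1, 3 or 4 or 3xTg liver 2 or 4, Acacb without WT liver 1 or 3 or 3xTg liver 2, 3 or 4, G6pdx without WT liver 1, 3 or 4 or 3xTg liver 3 or 4, and Pklr in 7 of the 8 fits. Over all alternatives their adjusted p reached 0.168, 0.187, 0.266 and 0.270, and the median of the 21 lipogenesis genes was between 0.37 and 0.76. Without both WT livers 3 and 4 the adjusted p of Acaca was 0.145. Acaca and Me1 share 56.8% and 42.2% of their 31-base words with other genes, which leaves their own levels less certain. Pklr shares 23.8%, G6pdx 17.7%, Fabp5 8.67% and Acacb 0%.

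Most genes of fatty acid oxidation lay below 0, with few calls. Of 22 tested peroxisomal and microsomal targets of the fatty acid receptor PPARA 1 was called lower and 21 not, against 0.904% of all genes tested called lower. By edgeR 12 of the 22 had an unadjusted p under 0.05, 21 lay below 0 and the median was -0.48. The called gene, Crot, which makes carnitine esters of medium-length fatty acids, was at 793, 676, 649 and 746 CPM in the WT livers and 435, 406, 458 and 323 in the 3xTg livers (-0.82 ± 0.21, adjusted p = 0.0429), and its call was lost in each of the 8 fits without 1 liver. DESeq2 called 4 of the 22 lower. Among those edgeR did not call, Acaa1b was at -1.04 ± 0.30, adjusted p = 0.0875 and Ech1 at -0.89 ± 0.25, adjusted p = 0.0756, and their groups did not overlap. Abcd3 was the exception above 0, at 0.37 ± 0.17, adjusted p = 0.415. Of 19 tested genes of mitochondrial beta-oxidation 0 were called at an adjusted p under 0.05 by edgeR and 6 had an unadjusted p under 0.05, 18 lay below 0 and the median was -0.28, while DESeq2 called 6 lower (Etfdh, Hadh, Acadm, Decr1, Cpt2 and Hadhb). Ldha, lactate dehydrogenase, was lower too, at 378 ± 39.2 against 587 ± 79.4 CPM (-0.64 ± 0.16, adjusted p = 0.0393), with its call lost in 7 of the 8 fits. Ppara itself was at -0.11 ± 0.13, adjusted p = 0.838.

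**Figure D4:**
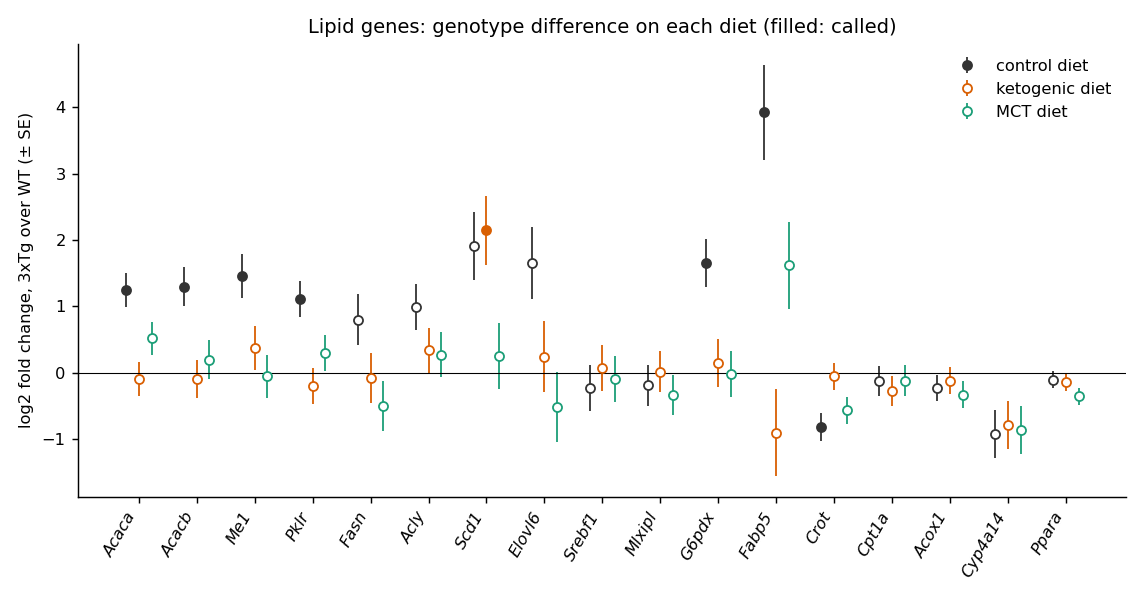
Log2 fold change, 3xTg over WT (± SE), of 17 lipid genes on the control (black), ketogenic (orange) and MCT (green) diets, with filled symbols for called differences. On the control diet Acaca, Acacb, Me1, Pklr, G6pdx and Fabp5 were called higher and Crot lower, while on the other diets Scd1 on the ketogenic diet was the only one of the 17 called.

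Other metabolic lists had few or no calls on the control diet. Over all 13281 genes tested 1.61% were called by edgeR, 385 genes were called by DESeq2, and 1528 had an unadjusted p under 0.05 in edgeR. At that share a list of this size can hold no called gene without being unusual. Of 24 cholesterol genes 0 were called by edgeR, with 3 at an unadjusted p under 0.05, 1 called lower by DESeq2 (Hmgcs1) and a median of -0.16. Bile acid synthesis and transport also had 0 called of 21, with 5 below an unadjusted p of 0.05 and Slco1a1 and Slco1a4 called by DESeq2, although 19 of the 21 lay below 0 (median -0.26). Triglyceride assembly had 0 called of 22 by edgeR or DESeq2, with 5 at an unadjusted p under 0.05, and a median of -0.001. Among 46 tested conjugation enzymes 2 were called higher (Tpmt and Gsto1) and 2 lower (Sult3a1 and Sult3a2), with 21 of the 46 at an unadjusted p under 0.05. DESeq2 called 5 of them higher and 6 lower. Gsto1, a glutathione transferase, averaged 109 ± 7.67 against 65.1 ± 8.64 CPM (0.74 ± 0.15, adjusted p = 0.00811). Of 58 tested genes on a list of cytosolic ribosomal proteins, which does not hold Rpl29, Rpl34 was the only one called. By edgeR or DESeq2 the nuclear-encoded respiratory chain had 0 called of 52 (1 at an unadjusted p under 0.05), complement and coagulation factors 0 of 43 (6) and stress response genes of the endoplasmic reticulum 0 of 30 (0). Acute phase proteins had 0 of 27 by edgeR (5 at an unadjusted p under 0.05) and 1 by DESeq2 (Mt1). Cell cycle genes had 0 called of 29, with 8 at an unadjusted p under 0.05, 1 called by DESeq2 (Cenpf) and a median of 0.57.

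The mouse counterparts of the human transgenes showed no called difference on this diet. App was at 110, 115, 101 and 92.5 CPM in the WT livers and 123, 106, 106 and 97.1 in the 3xTg livers (0.05 ± 0.13, adjusted p = 0.952), and Mapt at 3.20, 4.47, 5.37 and 3.49 CPM in the WT livers and 4.18, 5.02, 4.69 and 6.04 in the 3xTg livers (0.27 ± 0.22, adjusted p = 0.718). Thy1, whose promoter drives the transgenes, was at 1.43 ± 0.252 against 1.46 ± 0.262 CPM (-0.03 ± 0.34, adjusted p = 0.991). Nnt, which is partly deleted in a common inbred strain, was at 1.48, 1.27, 0.757 and 1.37 CPM in the WT livers and 0.426, 0.760, 0.547 and 0.416 in the 3xTg livers, with WT liver 3 just below the highest 3xTg liver (-1.17 ± 0.32, adjusted p = 0.0665).

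Markers of red blood cells lay above 0 together. Of 9 tested erythroid genes 2 were called higher, against 0.708% of all genes tested. All 9 lay above 0, against 49.8% of all genes tested, and their median was 1.63. Their summed level by library total was 220 to 417 CPM in WT and 275 to 983 CPM in 3xTg livers, highest in 3xTg livers 1 and 4 (p = 0.143 by an exact two-sided permutation test, 0.375 after adjustment over 21 library measures). Slc4a1, the anion exchanger of red cells, was at 0.156, 0.169, 0.138 and 0.187 CPM in the WT livers and 5.88, 0.532, 0.781 and 2.15 in the 3xTg livers (3.76 ± 0.91, adjusted p = 0.0333) and Hbb-bt, a beta globin, at 35.9, 21.9, 20.0 and 14.1 CPM in the WT livers and 110, 32.1, 42.2 and 100 in the 3xTg livers (1.63 ± 0.39, adjusted p = 0.0319). Slc4a1 lost its call without any 1 WT liver and without 3xTg liver 1 or 4, and Hbb-bt without WT liver 2, 3 or 4 or 3xTg liver 1 or 4. In bulk tissue, more cells of a type and more RNA per cell cannot be told apart. Of 17 B and plasma cell markers Ighg2b, an antibody chain, was called higher (1.62 ± 0.553 against 0.400 ± 0.255 CPM, log2 fold change 2.00 ± 0.49, adjusted p = 0.0362), and 14 lay above 0. Cd9 (19.7 ± 1.86 against 7.58 ± 2.14 CPM, log2 fold change 1.38 ± 0.25, adjusted p = 0.00304) was the 1 called among 15 monocyte and macrophage genes, and Vim, an intermediate filament of mesenchymal cells (35.8 ± 4.22 against 23.1 ± 2.21 CPM, log2 fold change 0.63 ± 0.15, adjusted p = 0.0271), the 1 called among 19 stellate cell genes. Ighg2b and Vim each lost their call in 6 of the 8 fits without 1 liver. Of 18 Kupffer cell markers 0 were called by edgeR or DESeq2 and 0 had an unadjusted p under 0.05. Summed pericentral hepatocyte markers were 11594 to 15890 CPM by library total in WT and 9780 to 11378 CPM in 3xTg livers (p = 0.0286 by the same exact permutation test, which can go no lower with 4 livers a group, and 0.300 after adjustment). With TMM factors the groups overlapped, at 16720, 15035, 13823 and 10370 CPM in the WT livers and 11714, 10846, 10571 and 8819 CPM in the 3xTg livers (p = 0.114 by the exact permutation test, 0.429 after adjustment). Of the 15 pericentral genes 0 were called by edgeR, with 3 below an unadjusted p of 0.05 and Nr1i3 lower by DESeq2. Adipocyte markers summed to 3059 to 4087 CPM by library total in WT and 2059.5 to 2797 CPM in 3xTg livers, and to 3271 to 3655 CPM and 2130.0 to 2818 CPM with TMM factors, without overlap on either scale (exact permutation p = 0.0286 on both, 0.300 and 0.429 after adjustment). Nearly all of that was Car3, a carbonic anhydrase that hepatocytes make as well (with TMM factors, 3395 ± 167 CPM in WT and 2459 ± 318 CPM in 3xTg). Adipoq, which defines the cell type, averaged 0.0734 CPM in WT and 0.542 CPM in 3xTg, and 0 of the 8 tested adipocyte genes were called by edgeR or DESeq2, with 0 at an unadjusted p under 0.05. Whether these markers have a part in the differences of other genes was not tested.

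The same genotypes were compared in the livers of the other diets, which came from other mice. Of the 214 genes, 196 had the same sign on the ketogenic diet and 205 on the MCT diet, where 53.6% and 68.7% of all tested genes did. On the ketogenic diet, where 1054 of 13281 genes were called (7.94%), 125 of the 214 were called in the same direction, which is 58.4% of the control-diet calls and 11.9% of the ketogenic ones. On the MCT diet, where 202 genes were called (1.52%), 113 were called in the same direction, 52.8% of the control-diet calls and 55.9% of the MCT ones. In all, 92 genes (43.0% of 214) were called in the same direction on all 3 diets, 31 higher and 61 lower. They included Serpina3c (-8.45 on the ketogenic and -6.56 on the MCT diet), Cyp2c39 (-5.46 and -5.04), Sult3a1 (-7.58 and -4.62), Sult3a2, Cyp2b9, Cyp2b13, Ifi44l, Bid and Naip2 among the lower genes, and Ctse (4.83 and 5.38), Acpp, Pik3c2g, Robo1, Tpmt, Cyp2c67 and Cyp2c68 among the higher. Exocrine pancreas transcripts above 100 CPM were found in 6 livers of the other diets. On the ketogenic diet they followed genotype: of 18 tested pancreas markers 16 were called lower in 3xTg and 0 higher, with a median of -12.2. On the MCT diet 0 of the 18 were called and the median was -0.50. Without those 6 libraries the number called on all 3 diets was 31, with 80 called on the ketogenic and 89 on the MCT diet. What part these transcripts have in the ketogenic calls was not tested.

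**Figure D5:**
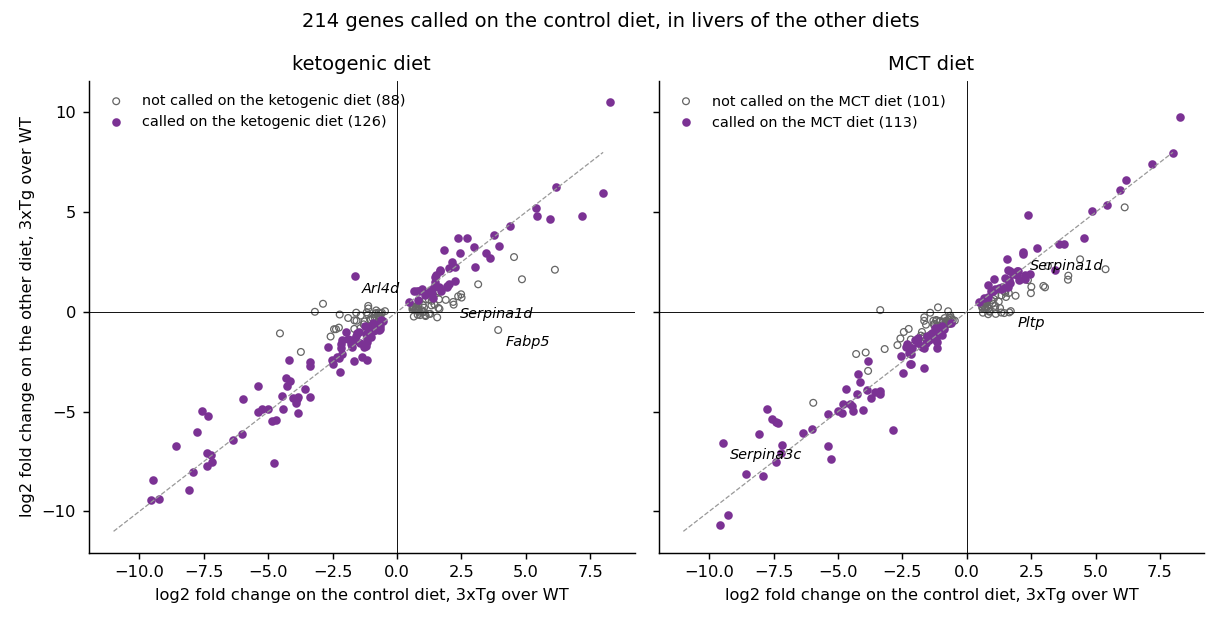
The 214 genes called on the control diet, by log2 fold change (3xTg over WT) on the control diet (horizontal) and on the ketogenic (left) or MCT (right) diet (vertical), with filled symbols for genes also called there and a dashed line of equality. Most genes with large differences lie near the line on both diets, and Arl4d, called lower on the control diet and higher on the ketogenic diet, lies apart.

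Of the 214 genes, 67 were called on the control diet and on neither other diet, and 46 of these had the same sign on both. The difference between diets was itself tested in the same fit. The genotype difference on the ketogenic diet minus that on the control diet passed for 1 of 13281 genes (0.00753%) by edgeR. In edgeR 1880 genes had an unadjusted p under 0.05 for it, 69 of them among the 214. DESeq2 called 253 genes for it, of which 20 were among the 214. The difference on the MCT diet minus that on the control diet passed for 0 (0%) by edgeR, and DESeq2 also called 0. In edgeR 273 genes had an unadjusted p under 0.05 for it, 39 of them among the 214. The 214 were chosen by the control-diet difference that both tests subtract, and that choice raises their share among small p. The gene that passed in edgeR was Arl4d, a small GTPase of the ARF family. On the control diet it was at 12.2, 11.7, 17.9 and 34.3 CPM in the WT livers and 6.48, 6.08, 5.62 and 6.18 in the 3xTg livers, lower in every 3xTg liver (-1.65 ± 0.40, adjusted p = 0.0317), and it was called higher on the ketogenic diet (1.78 ± 0.40, adjusted p = 0.00924), a difference of 3.43 ± 0.56, adjusted p = 0.0442. WT liver 4 was its highest control-diet liver. Its control-diet call was lost without WT liver 3 or 4 or any 1 3xTg liver, and the count of 1 fell to 0 without both WT livers 3 and 4.

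Acaca, Acacb, Me1, Pklr, G6pdx, Fabp5 and Crot, called on the control diet, were not called on the other diets, but the difference between diets did not pass edgeR's test for any of these 7 genes. Acaca was at 1.24 ± 0.25 on the control, -0.10 ± 0.25 on the ketogenic and 0.52 ± 0.25 on the MCT diet, with an adjusted p of 0.119 for ketogenic minus control and 1.0 for MCT minus control. By DESeq2 the ketogenic minus control adjusted p was 0.0240 for Acaca, 0.0392 for Acacb, 0.0373 for Pklr and 0.000654 for Fabp5. It was 0.195 for Me1, 0.0860 for G6pdx and 0.163 for Crot. All of these genes, like Serpina1d and Serpina1c below, were called on the control diet in the same livers. That choice favours a small p for the difference. Me1 was at 0.37 and -0.06 on the other diets, Acacb at -0.10 and 0.20, and Pklr at -0.21 and 0.30. The median of the 21 lipogenesis genes was 0.07 on the ketogenic and -0.06 on the MCT diet, with 1 called on the former (Scd1, 2.15 ± 0.52, adjusted p = 0.0141) and 0 on the latter. Fabp5 was at -0.91 ± 0.65 on the ketogenic and 1.61 ± 0.65 on the MCT diet (adjusted p = 0.0734 and 1.0 for the differences from the control diet). Pltp was called on the ketogenic diet (1.07 ± 0.29, adjusted p = 0.0274) and was at 0.04 ± 0.29 on the MCT diet, an MCT minus control difference of -1.67 ± 0.41, adjusted p = 1.0. The PPARA targets kept negative medians, -0.21 on the ketogenic and -0.62 on the MCT diet. Serpina1d was at 0.50 ± 0.27 on the ketogenic diet, where it was not called, and 2.93 ± 0.29 on the MCT diet, where it was, and Serpina1c at 0.20 ± 0.27 and 2.12 ± 0.28. Ketogenic minus control differences of -1.68 ± 0.38, adjusted p = 0.0933 for Serpina1d and -1.41 ± 0.38, adjusted p = 0.119 for Serpina1c did not pass edgeR's test, and the DESeq2 adjusted p was 0.00515 and 0.0224.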

How the data were processed

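Poly(A) RNA of 24 mouse livers was sequenced, 4 for each of 6 combinations of genotype and diet, and groups were taken from the labels. Per the submitters' processing notes, reads were trimmed with Trimmomatic and aligned with STAR to GRCm38. The deposited values are whole-number counts per gene, not normalized by the authors. How strand and the molecular identifiers of the adapters were used is not given in the sources used here. Entries that name no gene, 23.7% to 29.1% of the counts in the 8 control-diet libraries, were left out. No pair of replicates agreed within sampling noise.

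Genes were kept by filterByExpr (13281 of 55335), scaled by TMM and tested with edgeR 4.0.16 (R 4.3.3, quasi-likelihood test) fitting the 24 libraries together, 1 mean for each group, with 18 residual degrees of freedom. A gene was called at a Benjamini-Hochberg adjusted p under 0.05. SE is the log2 fold change over the square root of F. Values ± are SD over livers, except beside a log2 fold change, where they are SE. The series' design gives 4 mice in each group, so the spread is between mice. Library measures were compared by exact two-sided permutation tests. A level with 3 counts or fewer in a group is given as a ratio with an exact interval or, at 0, as a bound against 3 counts; these cover counting error only. Of the gene IDs 98.6% matched GENCODE M21, whose longest transcripts gave the 31-base words, and promoter sequences are RefSeq's.

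Named genes were, among called genes with at least 1 CPM on average and no overlap, the 12 highest, the 12 lowest and the 10 of smallest adjusted p, skipping unnamed gene models; up to 4 called members of each list; App, Mapt, Thy1, Nnt, Neat1 and Xist; up to 10 called on all 3 diets; up to 5 per difference between diets; and genes in runs of at least 3. Some genes that the rule names are not reported here. Uncalled list members were added to show their values. The comparison and the gene lists were chosen with earlier results of these data known. DESeq2 1.42.0, other scalings, no filter, fewer libraries and a replicate block were tried as alternatives, and, after seeing the data, marker sums with TMM factors. The tests were tested on simulated data.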

Additional observations from a re-analysis of the deposited data

Results flagged for a closer look

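In a group of 4 livers, a single liver was taken as far from the other 3 when its gap to the nearest, as a share of the group's range, passed Dixon's 95% criterion, which chance gives in about 1 in 20 groups. Over the genes named and the library measures, 204 groups were examined and 12 (5.88%) held such a liver, 4 of them 3xTg liver 4. Xist and Neat1 were each examined both as a gene and as a library measure. Xist in 3xTg liver 4 is therefore counted under both, with the same values.

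Among enzymes and proteases, the Ctse level of WT liver 1 was 4.29 CPM, with the other WT livers at 1.12 to 1.52 CPM. Me1 in WT liver 1 was the lowest of its group, at 163 CPM against 217 to 228 CPM. The G6pdx level of WT liver 2 was 10.2 CPM against 5.98 to 6.40 CPM, which is above the level of 3xTg liver 1. Cyp2b10 in WT liver 4 was at 8.60 CPM against 0.169 to 1.31 CPM, and Cyp2c55 in 3xTg liver 4 at 3.96 CPM against 2.34 to 2.39 CPM.

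Rpl34 in WT liver 4 was at 31.3 CPM, with the other WT livers at 1.69 to 2.18 CPM. Mapkapk3 in 3xTg liver 3 was at 5.08 CPM against 2.90 to 3.19 CPM. Rps13-ps1 was at 0.0694 CPM in 3xTg liver 4 and at 0 in the other 3xTg livers, a difference of 1 count. Xist in 3xTg liver 4 was at 228 CPM against 174 to 176 CPM in the rest of that group, and it stood out as a gene and as a library measure. Skeletal muscle markers, as CPM by library total alone, summed to 25.4 CPM in WT liver 2, with the other WT livers at 0.976 to 2.00 CPM, and to 42.7 CPM in 3xTg liver 1, with the other 3xTg livers at 1.13 to 2.54 CPM.

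The genotype difference in Arl4d was 3.43 higher, on the log2 scale, on the ketogenic than on the control diet, the 1 gene that passed edgeR's test of that difference.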

How the results depend on the processing

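None of the 214 genes called on the control diet changed sign in any of the 16 alternatives in which it was tested. The alternatives reuse the same livers, which makes a kept sign likely. With only the 8 control-diet libraries in the fit, 267 genes were called. That fit tested 187 of the 214, and 161 of them kept their call. The number called on that diet was 385 with DESeq2, which also called 212 of the 214, and 97 without both WT livers 3 and 4. Leaving out 1 liver gave 124 to 194 called genes, and 119 to 158 of the 214 kept their call. Of 77 named called genes, 32 kept their call in all alternatives and 45 in each that left out 1 liver. The ketogenic count was 4517 with scaling by library size alone and 80 without the 6 libraries with pancreas transcripts. The MCT count was 309 with DESeq2 and 89 without those libraries, which also left 31 genes called on all 3 diets. The count for ketogenic minus control was 871 with library size alone, 12 with no expression filter, 253 with DESeq2, 0 without both WT livers 3 and 4, and 0 to 1 when 1 liver was left out. The cause of these shifts was not tested. Among uncalled genes, Xist was at 0.15 and App at -0.062 (log2) without both WT livers 3 and 4. With TMM factors, chosen after seeing the data, each of the 15 marker sums moved its genotype difference by less than 1 SD, and that of the Kupffer cell markers changed sign, with means of 926 CPM in 3xTg and 932 CPM in WT livers by library total and 914 and 908 CPM with TMM factors. With 1 liver left out the App log2 fold change ranged from -0.023 to 0.095 and the Thy1 log2 fold change from -0.14 to 0.063.

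With the replicate number as a block (replicate block), 253 genes were called on the control, 1265 on the ketogenic and 189 on the MCT diet, 93 on all 3, and 0 for each difference between diets. Same-numbered livers of the genotypes correlated at 0.046, -0.035, -0.099 and 0.153 in their deviations. WT livers 1 and 4 correlated best with the 3xTg liver of their own number, and WT livers 2 and 3 did not. The labels do not say whether a number stands for a shared litter, batch or day, and these few correlations cannot decide it.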
